A study of Arabidopsis thaliana with 16 samples.

Results

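The genes described here act in chlorophyll synthesis and in the use of its phytol tail for tocopherol (vitamin E) synthesis. They are CHLM (AT4G25080), AT1G74470 and AT1G78620, each taken from the array feature that the platform annotation pairs with that gene alone. These were 3 of the 3439 features on the array, and all 3 were among the 2864 features with enough signal to be tested. They were selected on their pathway role with their log2 differences between blue and white light already known, so those differences are given as a description without a test. Total RNA came from wild-type Landsberg plants of Arabidopsis thaliana. One group was kept for 48 hours under white light and the other for 48 hours under blue light, each at 20 µE, the labels' unit of photon flux. The labels word the blue light plants as "finally grown" and the white light plants as "exposed", and whether growth before these hours differed is not stated, so such a difference cannot be told apart from the light. The labels name no mutation or transgene, and they give no organ, plant age or pooling of plants.

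Chlorophyll is made in the plastid from protoporphyrin, into which magnesium is inserted at the start of the chlorophyll branch. CHLM encodes the methyltransferase that adds a methyl group to magnesium protoporphyrin, the product of that step. AT1G74470 encodes geranylgeranyl reductase, which makes the phytyl chain that anchors chlorophyll in the membrane and that also forms the tail of tocopherol. When chlorophyll is broken down its phytol can be recovered by phosphorylation, and AT1G78620 encodes VTE6, the kinase that turns phytyl phosphate into phytyl diphosphate for tocopherol synthesis. The comparison of lights asks how these transcripts differ under blue light from their level under white light of the same photon flux.

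Each light had 8 array columns. Every one of the 16 columns was closest to the column with the neighbouring replicate number, so neighbours (1 with 2, 3 with 4, 5 with 6, 7 with 8) were averaged and counted as 1 sample, called samples 1 to 4 of each light. The labels do not say whether samples came from separate plants, so the spread between them may be technical. Total signal per white light column was 1044 to 3320 array units, against 3067 to 3735 per blue light column. White light replicates 7 and 8, which form white light sample 4, had the lowest totals, near 1044 each. The normalized differences of the 3 genes between the lights are given with and without that sample. Percentiles and ranks among features include it. In RNA of bulk plant material, fewer cells that use a gene and less of its RNA per cell cannot be told apart.

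AT1G78620 (VTE6) was much brighter in blue light. Its deposited signal in white light ran from 0 to 0.297 array units over the 8 columns, with a median of 0.0760, and it was listed at 0 in 1 of them, replicate 8. In blue light its signal ran from 1.03 to 2.69, with a median of 2.01, and no column was at 0. The lowest blue light column was thus above the highest white light column as deposited, before any scaling done here.

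CHLM was also brighter in blue light as deposited. Its white light signal ran from 0.0925 to 0.500, with a median of 0.401, and its blue light signal from 0.471 to 1.29, with a median of 0.924. The columns of the lights overlapped slightly, since blue light replicate 7 (0.471) was below white light replicate 2 (0.500). The lowest columns of each light were replicates 7 and 8.

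AT1G74470, the geranylgeranyl reductase gene, showed no such separation. Its white light signal ran from 1.28 to 4.27, with a median of 2.38, and its blue light signal from 2.48 to 4.15, with a median of 3.39. The highest columns of all were white light replicates 1 and 2, and the lowest were white light replicates 7 and 8, so the lights overlapped widely.

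**Figure D1:**
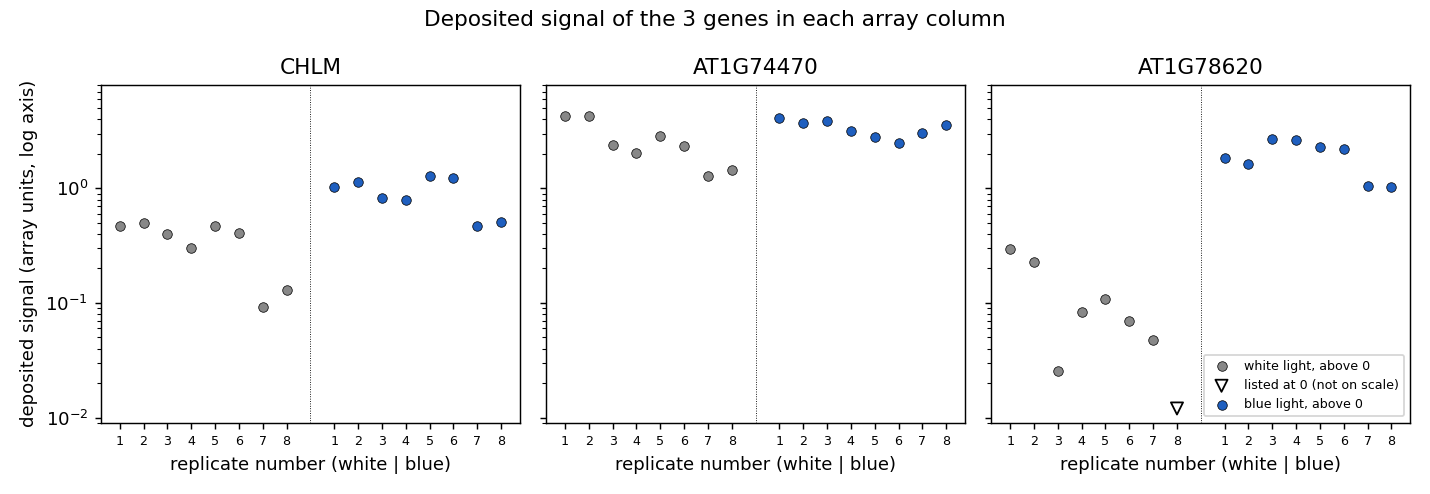
Deposited signal in array units (log axis) against replicate number for CHLM, AT1G74470 and AT1G78620, with 8 white light columns (grey) at the left and 8 blue light columns (blue) at the right of each panel. AT1G78620 lies between 1.03 and 2.69 in blue light and at or below 0.297 in white light, where the open triangle marks the column listed at 0, while AT1G74470 overlaps between lights.

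The place of each feature in the brightness order of its own column does not depend on a scaling factor. AT1G78620 was at percentiles 7.12 to 52.5 in white light (median 29.1) and 84.4 to 96.0 in blue light (median 92.3). The 7.12 is the shared rank of all entries at 0 in white light replicate 8. The lowest percentile of AT1G78620 from a value above 0 was 16.3, in white light replicate 3. CHLM was at percentiles 50.3 to 75.9 in white light and 56.0 to 82.2 in blue light, with medians of 68.7 and 69.2. AT1G74470 held a median at percentile 97.0 in both lights. VTE6 alone of these genes thus had columns in separate parts of the brightness order in the different lights.

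The columns differed in overall signal, so values were put on the log2 scale, quantile-normalized over the tested features and averaged over neighbours. On this scale AT1G78620 had levels of -1.78, -3.74, -2.98 and -2.73 in white light samples 1 to 4. In blue light samples 1 to 4 the levels were 0.21, 1.20, 0.77 and -0.22. The groups did not overlap, with a gap of 1.56 between the highest white light and the lowest blue light sample. Groups that did not overlap, by a gap of any size, were seen in 33.3% of all tested features, and in 15.9% with blue light above white light.

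The mean log2 level of AT1G78620 was -2.81 ± 0.81 (SD, n = 4) in white light and 0.49 ± 0.62 in blue light. The difference was 3.30 (SE 0.45). Among the 576 tested features with a single gene, 1 had a larger difference upward, and among all 2864 tested features 6 had. White light is the less certain side of this difference, so no exact fold is given. In 4 of the 8 white light columns the signal was below 0.0764, the 10th percentile of values above 0 over all 16 columns. These were replicates 3, 6, 7 and 8, at percentiles 16.3, 24.5, 31.1 and 7.12 of their own columns. White light columns had lower medians than blue light columns. The column listed at 0 was left out as missing. With values below 0.0764 raised to it the difference was 3.08, and with 0.0764 added as a pseudocount it was 2.79. Between the neighbouring columns of white light sample 2 the level differed by 1.73, and in samples 1 and 3 by 0.30 and 0.61, against 0.01 to 0.22 between neighbours in blue light, and white light sample 4 rests on replicate 7 alone. Without white light sample 4 the difference was 3.33 (SE 0.49), and without sample 4 of both lights it was 3.56 (SE 0.50).

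Within the number pairs the difference of AT1G78620 was 1.99, 4.94, 3.75 and 2.51 for samples 1 to 4. Blue light was the higher in 4 of 4 pairs, and the SD of the pair differences was 1.32. With the pairing as a block the SE of the difference was 0.48, against 0.45 without it. The smallest difference was in pair 1, where white light was highest, and the largest was in pair 2, where white light was lowest and blue light highest.

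CHLM, the methyltransferase gene, had normalized log2 levels of -0.99, -0.84, -0.89 and -1.51 in white light samples 1 to 4. In blue light samples 1 to 4 they were -0.73, -1.07, -0.39 and -1.43. The groups overlapped, and sample 4 was the lowest in both lights. The means were -1.06 ± 0.31 (SD, n = 4) in white light and -0.90 ± 0.44 in blue light, a difference of 0.16 (SE 0.30). The difference in 3 of 4 pairs was upward, and over the pairs it ran from -0.22 to 0.50. Without white light sample 4 it was 0.01 (SE 0.30), and without sample 4 of both lights 0.18 (SE 0.26).

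AT1G74470 had normalized log2 levels of 1.60, 1.47, 1.11 and 1.82 in white light samples 1 to 4 and of 1.72, 1.61, 1.09 and 1.57 in blue light. Sample 3 was the lowest in both lights, and the groups overlapped almost entirely. The means were 1.50 ± 0.29 (SD, n = 4) in white light and 1.50 ± 0.28 in blue light, with a difference of 0.00 (SE 0.27). The pair differences ran from -0.25 to 0.15, with 2 of 4 upward. Their SD of 0.18 was smaller than the spread of 0.29 between samples of the same light. Without white light sample 4 the difference was 0.11 (SE 0.27).

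**Figure D2:**
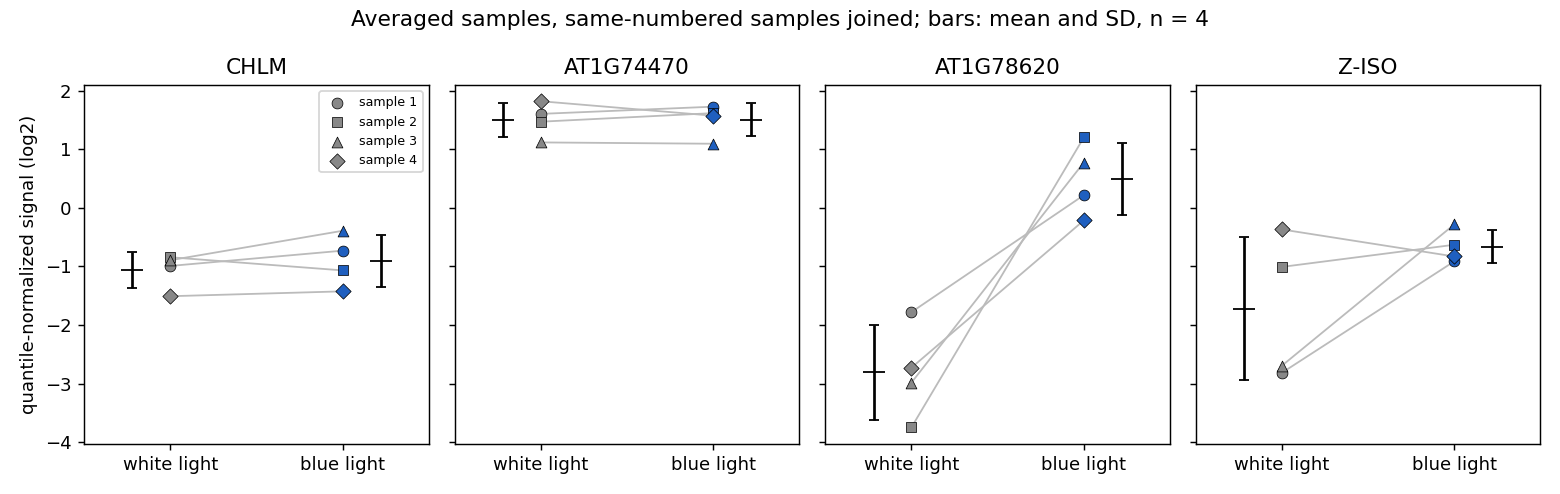
Quantile-normalized log2 signal of the averaged samples for CHLM, AT1G74470, AT1G78620 and Z-ISO in white light (grey) and blue light (blue), with same-numbered samples joined and the mean and SD (n = 4) at the side. AT1G78620 goes from a mean of -2.81 to 0.49 with no overlap, AT1G74470 is at 1.50 in both lights, and the Z-ISO samples are widely spread in white light.

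In the fit across all features, 1 of the 3 genes, AT1G78620, was past the adjusted p threshold of 0.05, against 32.4% of all tested features and 30.7% of the 576 with a single gene. Since the genes were chosen with this contrast known, nothing is read from that count. It also depended on the scaling: CHLM was past the threshold as well, as higher, without normalization, and AT1G74470 was past it, as lower, with median centring. CHLM was at percentile 55.8 of all differences and AT1G74470 at percentile 50.0, and the interquartile range of all tested features was -0.66 to 0.75.

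**Figure D3:**
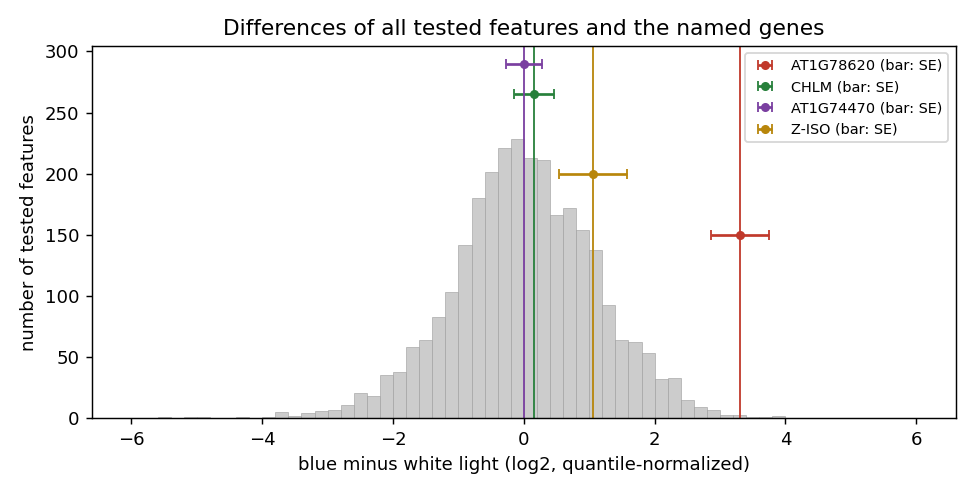
Number of tested features (of 2864) against the blue minus white light difference in log2 units, with CHLM, AT1G74470, AT1G78620 and Z-ISO marked by vertical lines and points whose bars are the standard error. AT1G78620 lies at 3.30 in the upper tail, and CHLM (0.16) and AT1G74470 (0.00) lie in the middle of the distribution.

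How far each gene differed between the lights depended on the scaling. Without normalization the median difference of all tested features was 1.37. On that scale the difference was 4.44 (SE 0.58) for AT1G78620, 1.52 (SE 0.53) for CHLM and 0.46 (SE 0.40) for AT1G74470. CHLM thus sat 0.15 above the median of all features, and it stayed 0.07 to 0.17 above that median under each of the other normalizations and treatments of low values. AT1G78620 was 3.30 above it with quantile normalization and 2.80 to 3.11 above it under those settings, with the smallest value from a pseudocount added before taking logs.

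AT1G74470 kept no fixed place. With quantile normalization or cyclic loess, which adjust for brightness, its difference was within 0.01 of the median of all features. Relative to that median it was at -0.90 without normalization and at -0.91 with median centring (a difference of -1.02, SE 0.27) or scaling to total signal (-0.24, SE 0.27). The tested features were then split into 10 bins of equal size by mean signal. The brightest bin, to which AT1G74470 belongs, had a median difference of 0.48 as deposited, against 1.11 to 1.68 in each of the other bins. Relative to the median of its own bin AT1G74470 was at -0.02 with no normalization, median centring or total signal. These settings differ by a single factor per column, so their equal value follows from that. With quantile normalization it was at 0.08, and with cyclic loess at 0.04.

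AT1G78620 and CHLM both fell in bin 7, with 286 features. AT1G78620 ranked 1 of these 286 for its difference under all 5 normalizations, 2.98 to 3.26 above the median of the bin. CHLM ranked 130 or 131 under the same settings, 0.11 or 0.12 above it. AT1G78620 was chosen with this difference known, so its rank is a description. The settings that differ by a single factor per column again gave nearly equal values by design. The bins use the mean over both lights, while AT1G78620 had a median percentile of 29.1 in white and 92.3 in blue light.

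**Figure D4:**
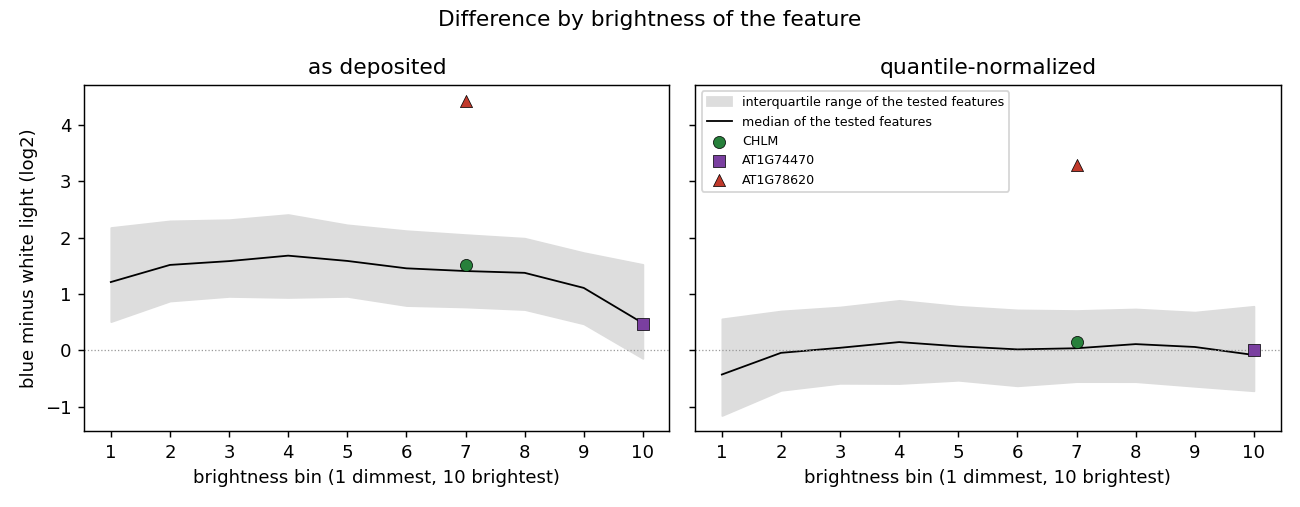
Blue minus white light difference (log2) against brightness bin, from 1 (dimmest) to 10 (brightest), as deposited (left) and quantile-normalized (right), with the median (line) and the interquartile range (grey band) of the tested features. As deposited the line falls to 0.48 in the brightest bin, where AT1G74470 lies on it, CHLM lies near the line in both panels and AT1G78620 lies far above the band in both.

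A factor common to an array cancels when genes are compared on the same array. A shift that depends on brightness does not cancel. In white light sample 4 the factor cancels only in part for AT1G78620. Its value there rests on replicate 7, while CHLM and AT1G74470 average replicates 7 and 8. As deposited, the log2 ratio of AT1G78620 to AT1G74470 was higher in blue light by 3.97 (SE 0.47, n = 4 per group). Its pair values ran from 2.84 to 5.20. The log2 ratio of AT1G78620 to CHLM was higher by 2.92 (SE 0.52), with pair values from 1.57 to 4.63. Both ratios were higher in blue light in every pair. After quantile normalization they were higher by 3.30 (SE 0.54) and 3.15 (SE 0.55), and without white light sample 4 by 3.22 and 3.32. Over the alternative settings they ran from 2.80 to 3.97 and from 2.67 to 3.16. The log2 ratio of CHLM to AT1G74470 was higher by 1.06 (SE 0.43) as deposited and by 0.16 (SE 0.43) after quantile normalization, so whether these genes of the chlorophyll pathway changed alike depended on the scaling.

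**Figure D5:**
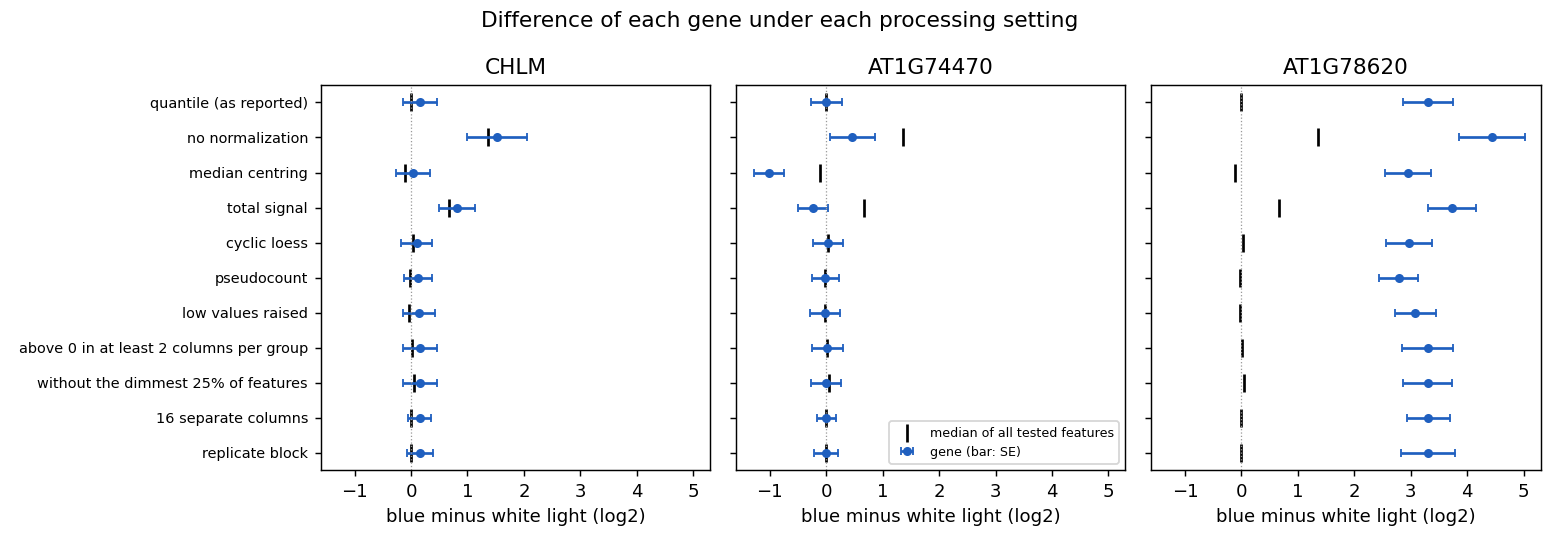
Blue minus white light difference (log2, bars are the standard error) of CHLM, AT1G74470 and AT1G78620 under quantile normalization and 10 other settings, with the median of all tested features as a vertical tick. AT1G78620 lies between 2.79 and 4.44 throughout, CHLM follows the tick, and AT1G74470 falls below it where each column was scaled by a single factor or left as deposited.

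The pathway around these genes was thinly covered. Of 90 genes in 7 lists (tetrapyrrole and chlorophyll synthesis, the heme branch, chlorophyll breakdown, phytol and tocopherol synthesis, plastid isoprenoid precursors, carotenoid synthesis, and light and plastid regulators), 4 had a feature of their own, among them the 3 genes described above. A further 3 were listed only on features shared between genes and are not named. Of the 27 tetrapyrrole and chlorophyll synthesis genes, CHLM and AT1G74470 were the 2 tested, and of the 14 phytol and tocopherol genes AT1G78620 was the 1 tested. The kinase VTE5, the phytyltransferase VTE2 and the tocopherol cyclase VTE1, which act beside VTE6, had no feature of their own here. None of the 13 green tissue, seed and root marker genes had one either, so the organ could not be checked.

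The remaining list gene was Z-ISO (AT1G10830), the carotenoid isomerase that acts on zeta-carotene, which like phytyl diphosphate derives from geranylgeranyl diphosphate. Its normalized log2 levels were -2.81, -1.01, -2.69 and -0.37 in white light samples 1 to 4 and -0.91, -0.63, -0.28 and -0.83 in blue light. White light samples 1 and 3 were low and samples 2 and 4 lay near the blue light samples, so the groups overlapped. The difference of 1.06 (SE 0.52) did not pass, with a limma adjusted p of 0.146 and an unadjusted p of 0.0686. Thus 0 of 1 list genes outside the chosen genes passed in either direction by limma, before or after adjustment, against 43% of all tested features before adjustment and 32.4% after. Over its alternatives the limma adjusted p ran from 0.00159 to 0.326. Without white light sample 4 the difference was 1.51 and passed (limma adjusted p = 0.0250), as it did without sample 4 of both lights (1.56, limma adjusted p = 0.0374).

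For each gene the 3 single-gene features with the most similar profile were taken, by the root mean square (RMS) difference of centred log2 levels over the 8 averaged samples. For AT1G78620 these were AT4G17070 (RMS 0.53), OSB1 (0.77) and AT3G16310 (0.79), against a median of 1.80 over the 575 other features. OSB1 encodes an organellar DNA-binding protein. The differences of these 3 features between the lights were 2.81 (SE 0.32), 2.07 (SE 0.36) and 2.15 (SE 0.26), after quantile normalization. Profiles were matched over both lights, so large upward differences follow from the selection and are a description only. The value for OSB1 was 1.17 with the pseudocount, 1.20 with low values raised, 2.93 scaled to total signal and 3.63 without normalization. AT4G17070 was at 1.64 with median centring, and AT3G16310 was at 3.23 without normalization.

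The profiles most like that of CHLM were those of AT1G77730 (RMS 0.18), CSLA01 (0.23), a cellulose synthase-like gene, and AT1G61990 (0.23), against a median of 0.70. Those most like AT1G74470 were AT5G49800 (0.18), AT1G53260 (0.18) and AT5G62840 (0.21), against a median of 0.67. The differences of these 6 features between the lights ran from -0.08 to 0.31 after quantile normalization. Over the other settings they ran from -0.44 (AT1G61990, with median centring) to 1.92 (CSLA01, without normalization). The match was again made over both lights, so small differences after quantile normalization follow from the selection. A small RMS difference is easier to reach for a gene that varies little, so the RMS values are not comparable between CHLM or AT1G74470 and AT1G78620.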

How the data were processed

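The authors deposited linear intensity values for 3439 features in 16 columns, with none below 0 and 11.7% to 16.7% of each column at exactly 0. The highest value was 100. It was shared by white light replicates 1, 2, 5, 6, 7 and 8 and by blue light replicates 5, 7 and 8. The labels do not state the background correction, scaling or image analysis. Probe sequences were not used here, so cross-hybridization was not assessed. The 3 genes and all 10 gene lists (103 genes) were chosen with earlier results of these data known.

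Gene names come from the platform annotation, which may be outdated, and were updated with the TAIR10.1 gene table: 692 features have exactly 1 gene, 870 several and 1877 none listed, and 690 of the 692 matched the table. Entries of 0 were treated as missing, features with a value above 0 in 6 or more of the 8 columns per light were kept, and log2 values were quantile-normalized over these. Neighbouring columns were averaged because 16 of 16 columns were closest to their neighbour (SD between neighbours 0.42, between averaged samples of a light 0.64), and this choice was made with the data known. The lights were compared with limma 3.58.1 (lmFit and eBayes) in R 4.3.3, two-sided, with Benjamini-Hochberg adjustment over all 2864 tested features. The script was tested on simulated data with fewer changed features than were called here. The simulated columns had no shift that depends on brightness, so that test cannot show how the normalization performs on these data. The number of arrays limits the precision.

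Same-numbered averaged samples deviated together, with correlations across features of 0.18 to 0.45, above the limit of 0.1 in every pair. For other numbers the correlations ran from -0.25 to 0.104, so the highest of these also just exceeded the limit. The numbers were counted as pairing the samples, though the labels do not state it. All values, errors and shares are nevertheless from the fit without a block, and the fit with the pairing as a block was an alternative. Named were the 3 genes, list genes with a tested single-gene feature and the 3 most similar profiles per gene. Alternatives covered normalization, low values (at the 10th percentile of values above 0), filters, 16 separate columns, the replicate block and samples or columns left out.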

Additional observations from a re-analysis of the deposited data

How the results depend on the processing

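The counts of 456 higher and 471 lower features were 1530 and 44 without normalization, 1074 and 213 scaled to total signal and 734 and 749 with 16 separate columns. The fit with separate columns counts neighbours as independent samples, which the averaging avoids, so it overstates the precision. Without normalization the difference was 4.44 for AT1G78620, 1.52 for CHLM and 0.46 for AT1G74470. Scaled to total signal CHLM was at 0.82, and with median centring AT1G74470 was at -1.02. The change of CHLM relative to AT1G74470 was 1.06 with no normalization, median centring and total signal. These settings differ by a single factor per column, which cancels in the ratio, so their equal values are not separate evidence. The change was 0.16 with quantile normalization and 0.07 with cyclic loess. Z-ISO passed without normalization (2.49), scaled to total signal (1.79) and with 16 separate columns (1.06). With separate columns its difference was unchanged and its SE was 0.39, against 0.52 with neighbours averaged. With samples or columns left out its difference ran from 0.69 to 1.56. The cause of these changes was not tested. With the replicate block 596 features were higher and 599 lower (41.7% of those tested, against 32.4%), AT1G78620 was at 3.30 (SE 0.48), CHLM at 0.16 (SE 0.23) and Z-ISO was at 1.06 (limma adjusted p = 0.115), and the block changed no call among these genes. Over 25 fits without a sample or a column, the difference ran from 2.99 to 3.64 for AT1G78620, from -0.02 to 0.33 for CHLM and from -0.13 to 0.14 for AT1G74470. In white light the signal of AT1G78620 was low (median at percentile 29.1 of its column) and its value least precise. Raising low values gave a difference of 3.08.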
